A study of Mus musculus with 6 samples.

Results

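Sulfur for transfer RNA thiolation, for the molybdenum cofactor and for iron-sulfur clusters is carried on the cysteines of proteins as a persulfide, and the 10 genes described here encode the enzymes and carriers of those routes. They are Nfs1, Iscu, Mocs1, Mocs2, Mocs3, Gphn, Urm1, Ctu1, Ctu2 and Trmu, out of 24984 genes listed. They were chosen by pathway membership, with earlier results of these data known. The 6 RNA-seq libraries came from inguinal white adipose tissue, the subcutaneous fat of the groin, of mice given a high-fat diet. Their genotypes were wild type (3 libraries) and Mpst knockout (3 libraries), and both groups received the diet. The labels give no strain, age, sex or length of feeding, and do not say which part of Mpst the knockout removes or whether it is absent from the whole body. They number the replicates without naming separate animals. Each p-value therefore reflects only the variation among these 6 libraries, which may be technical.

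MPST is a sulfurtransferase that takes sulfur from 3-mercaptopyruvate onto an active-site cysteine as a persulfide, from which other proteins can receive it. NFS1, the mitochondrial cysteine desulfurase, forms a persulfide from cysteine and hands it to ISCU, the scaffold on which iron-sulfur clusters are built. In the cytosol the rhodanese domain of MOCS3 takes up persulfide sulfur and MOCS3 passes it to ubiquitin-like carriers, URM1 on the way to transfer RNA and MOCS2A on the way to the molybdenum cofactor, while in mitochondria TRMU thiolates transfer RNA with sulfur that starts from NFS1. Thiolation of the wobble uridine helps transfer RNA read its codons, and the molybdenum cofactor is needed by sulfite oxidase and xanthine dehydrogenase.

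Both carriers end in a pair of glycines and hold the transferred sulfur at that C-terminal end. The ends of their reading frames are shown for that pair. Each run is the last stretch of coding sequence with its stop codon on the plus strand of GRCm38, read from GENCODE transcripts, and capitals mark a pair of GGN codons, which encode glycine, directly before the stop. The first Mocs2 run ends the upstream reading frame of the gene and the second ends its downstream frame, which has no such pair.
Urm1, chr2:29843145-29843171: ttcatctccacactgcacGGCGGCtga
Mocs2, upstream frame, chr13:114820902-114820928: atcatcccgccaatcagtGGAGGAtaa
Mocs2, downstream frame, chr13:114828331-114828357: gagtgcttctgggcagctggtgactag
The 2 Mocs2 frames encode the small and the large subunit of molybdopterin synthase, and the deposited count is 1 value for the gene, so the subunits' messages could not be told apart.

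All 10 genes were expressed in every library and none passed the test for a genotype difference, higher or lower. The test was edgeR's quasi-likelihood test across 14065 genes, with Benjamini-Hochberg adjustment and a threshold of 0.05. It called 7.41% of all tested genes, 4.76% higher and 2.65% lower in the knockout. DESeq2, which called 14% of all tested genes and 6.36% lower, and limma-voom also called 0 of the 10. At an unadjusted p under 0.05, 2 members were lower (Urm1 and Trmu) and 0 higher, against 12.7% lower, 14.9% higher and 27.6% in either direction of all tested genes. The point estimates of 9 of the 10 lay below 0, as did those of 49.5% of all tested genes. The members' median log2 fold change (knockout over wild type) was −0.27, against 0.01 over all tested genes. The 95% interval of each member lay within a 2-fold change in either direction. The lowest bound was −0.73 on the log2 scale, for Ctu1, and the highest was 0.40, for Gphn.

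**Figure D1:**
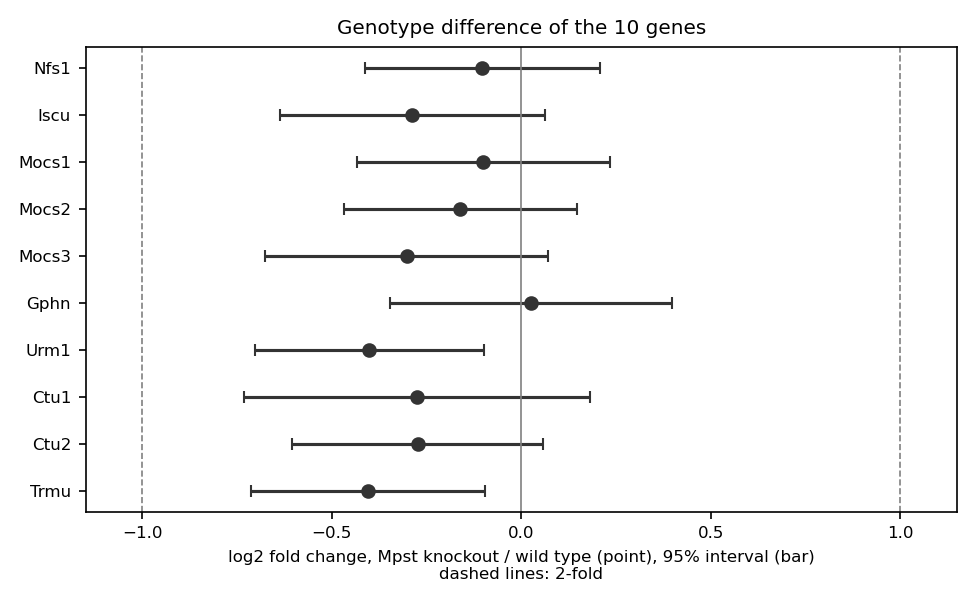
Log2 fold change of each of the 10 genes, knockout over wild type (points), with its 95% interval from edgeR's quasi-likelihood fit (bars, 3 libraries per genotype); dashed lines mark a 2-fold change. Every interval stays between the dashed lines, and those of Urm1 and Trmu lie below 0 although their adjusted p-values (0.0944 and 0.0974) do not pass.

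Libraries held 8054560 to 22458630 counts in genes, knockout replicate 1 being the shallowest, and the 10 genes together had 5242 counts there and 10678 to 14250 in the others. Raw counts of Mpst itself were 1358, 1394 and 1624 for wild type against 3, 10 and 9 for knockout, and each library matched its label. Adipocyte markers were high in every library (9 genes, summed level 56877 to 66734 CPM, the count scaled by the normalised library size, in wild type and 37211 to 46357 CPM in knockout, with 3 of the 9 called lower). Macrophage markers summed to 457 to 877 CPM in wild type and 1420 to 1498 CPM in knockout, with 6 of 9 called higher, and fibroblast markers to 3228 to 4555 and 5176 to 6473 CPM, with 3 of 6 called higher. Endothelial markers summed to 1060 to 1181 and 1159 to 1302 CPM (1 of 6 called higher), and lymphocyte markers to 11.5 to 13.3 and 15.1 to 28.2 CPM (0 of 8 called by edgeR, 1 higher at an unadjusted p under 0.05 and 1 by DESeq2). Of 7 mammary epithelium markers, which summed to at most 0.440 CPM in any library, Krt14, Csn2 and Csn3 were at 0 in all 6. Skeletal muscle markers reached 828 CPM in wild-type replicate 2 and 1966 CPM in knockout replicate 3, against 36.0 to 141 CPM in the other 4 libraries. In bulk tissue, fewer cells of a type and less RNA per cell cannot be told apart, and the part of these cell type differences in the values below was not tested.

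On GRCm38, Nfs1 (chromosome 2, 156123639 to 156144186, minus strand) stood at 67.1, 76.7 and 89.5 CPM in wild type and at 74.2, 65.9 and 77.2 CPM in knockout, in the order of replicates 1, 2 and 3 here and below. The ranges overlapped, with wild-type replicate 3 the highest of the 6 libraries. The means were 77.7 ± 11.2 and 72.4 ± 5.85 CPM (SD, n = 3 each), a log2 fold change of −0.10 (SE 0.14, 95% interval −0.41 to 0.21, edgeR adjusted p = 0.667). Iscu (chromosome 5, 113772748 to 113778288, plus strand) was measured at 194, 225 and 157 CPM in wild type and 164, 168 and 141 CPM in knockout. Wild-type replicate 3 lay below knockout replicates 1 and 2, so the genotypes overlapped. Its log2 fold change was −0.29 (SE 0.15, interval −0.64 to 0.06, edgeR adjusted p = 0.261), and −0.16 without wild-type replicate 2, its highest library. The Nfs1 estimate was −0.19 when wild-type replicate 1 was left out, 0.017 when wild-type replicate 3 was, and −0.04 when knockout replicate 2 was.

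Mocs1 (chromosome 17, 49428362 to 49455435, plus strand) encodes the proteins that convert GTP to the first cofactor intermediate, a step that itself needs iron-sulfur clusters. It stood at 52.0, 56.5 and 73.0 CPM in wild type and 55.8, 52.5 and 61.1 CPM in knockout. The knockout values all lay inside the wild-type range, and the log2 fold change was −0.10 (SE 0.15, edgeR adjusted p = 0.700). Without 1 library it ranged from −0.19 (wild-type replicate 1) to 0.064 (wild-type replicate 3), and it was −0.16 without knockout replicate 3 and −0.05 without knockout replicate 2. Mocs2 (chromosome 13, 114818236 to 114832275, plus strand), which encodes both molybdopterin synthase subunits, was at 178, 217 and 179 CPM in wild type and 188, 172 and 153 CPM in knockout. Knockout replicate 3 was the lowest and wild-type replicate 2 the highest, with the others interleaved (log2 fold change −0.16, SE 0.14, edgeR adjusted p = 0.479). Leaving out wild-type replicate 2 gave −0.06, and leaving out knockout replicate 3 gave −0.09. Gphn (chromosome 12, 78226379 to 78684772, plus strand) encodes gephyrin, which inserts molybdate into the cofactor and in neurons anchors inhibitory receptors. Its levels were 23.7, 27.4 and 36.4 CPM in wild type and 28.3, 30.0 and 30.7 CPM in knockout. The knockout libraries again sat inside the wild-type range, and Gphn was the only member with a point estimate above 0 (0.02, SE 0.16, interval −0.35 to 0.40, edgeR adjusted p = 0.938). That sign changed when wild-type replicate 1 or 2 or knockout replicate 3 was left out.

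Mocs3 (chromosome 2, 168230622 to 168232594, plus strand), a gene of 1 exon, encodes the enzyme that activates both ubiquitin-like carriers, which serves the molybdenum and the transfer RNA route. It stood at 10.7, 12.2 and 11.9 CPM in wild type and 10.7, 9.15 and 8.53 CPM in knockout, from raw counts of 175 to 257 and 90 to 208. Wild-type replicate 1 and knockout replicate 1 were level, and the other knockout libraries lay below all of wild type. The means were 11.6 ± 0.770 and 9.47 ± 1.13 CPM (SD, n = 3 each), a log2 fold change of −0.30 (SE 0.16, interval −0.68 to 0.07, edgeR adjusted p = 0.267).

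Urm1 (chromosome 2, 29820075 to 29845002, plus strand), the sulfur carrier of cytosolic transfer RNA thiolation whose coding end is printed above, was at 59.5, 55.0 and 50.9 CPM in wild type and 45.9, 44.0 and 35.6 CPM in knockout. All knockout libraries lay below all wild-type libraries. The means, 55.2 ± 4.29 and 41.8 ± 5.48 CPM (SD, n = 3 each), gave a log2 fold change of −0.40 (SE 0.13, interval −0.70 to −0.10), which did not pass (edgeR adjusted p = 0.0944). It passed without wild-type replicate 3 (−0.45, edgeR adjusted p = 0.0454). That fit called 1434 of all tested genes higher and 1167 lower, against 669 and 373 in the reported fit. Over the alternatives the adjusted p of Urm1 ranged from 0.0292 to 0.431.

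CTU1 and CTU2 form the enzyme that puts the sulfur from URM1 on the wobble uridine. Ctu1 (chromosome 7, 43672016 to 43678298, plus strand) stood at 11.2, 11.8 and 12.1 CPM in wild type and 12.6, 8.89 and 7.85 CPM in knockout. Wild-type replicates were close together (coefficient of variation 4.19%) and knockout replicates were not (25.7%), with knockout replicate 1 the highest of all 6 libraries and replicates 2 and 3 the lowest. That replicate had 106 raw counts for the gene. The log2 fold change was −0.28 (SE 0.20, interval −0.73 to 0.18, edgeR adjusted p = 0.410), and −0.48 without knockout replicate 1 or −0.14 without knockout replicate 3. Ctu2 (chromosome 8, 122476143 to 122484138, plus strand) was at 25.9, 29.0 and 25.6 CPM in wild type and 24.7, 23.7 and 18.5 CPM in knockout, which did not overlap. Its log2 fold change was −0.27 (SE 0.15, interval −0.60 to 0.06, edgeR adjusted p = 0.258), and −0.15 without knockout replicate 3. The Ctu2 value is the least certain in annotation. Of its exons, 1395 bases lie inside Piezo1 on the opposite strand, and the library kit does not mark strand. A GENCODE gene model on the same strand, Gm20388, spans all 3090 bases of its coding transcripts' exons. Shorter stretches of exon lie inside other genes for Nfs1 (148 bases in Romo1 and 945 in the same-strand model Gm28036), Mocs1 (203 in Gm20540) and Gphn (147 in Gm48226). These overlaps were taken with the whole span of the other gene, introns included, so they need not be shared exon. How many reads they affect was not tested.

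Trmu (chromosome 15, 85879312 to 85897394, plus strand), the mitochondrial counterpart of CTU1 and CTU2, stood at 32.3, 25.7 and 26.1 CPM in wild type and 21.6, 21.96 and 19.9 CPM in knockout. The genotypes did not overlap, and wild-type replicate 1 stood above the other 2. From means of 28.02 ± 3.72 and 21.2 ± 1.07 CPM (SD, n = 3 each), the log2 fold change was −0.40 (SE 0.14, interval −0.71 to −0.10), which did not pass (edgeR adjusted p = 0.0974, and 0.0506 to 0.380 over the alternatives). Without wild-type replicate 1 it was −0.28. Trmu lies on the same chromosome as Mpst, 7.47 Mb away. Whether sequence around Mpst differs between the genotypes is not given in the labels, and its part in the Trmu value was not tested.

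**Figure D2:**
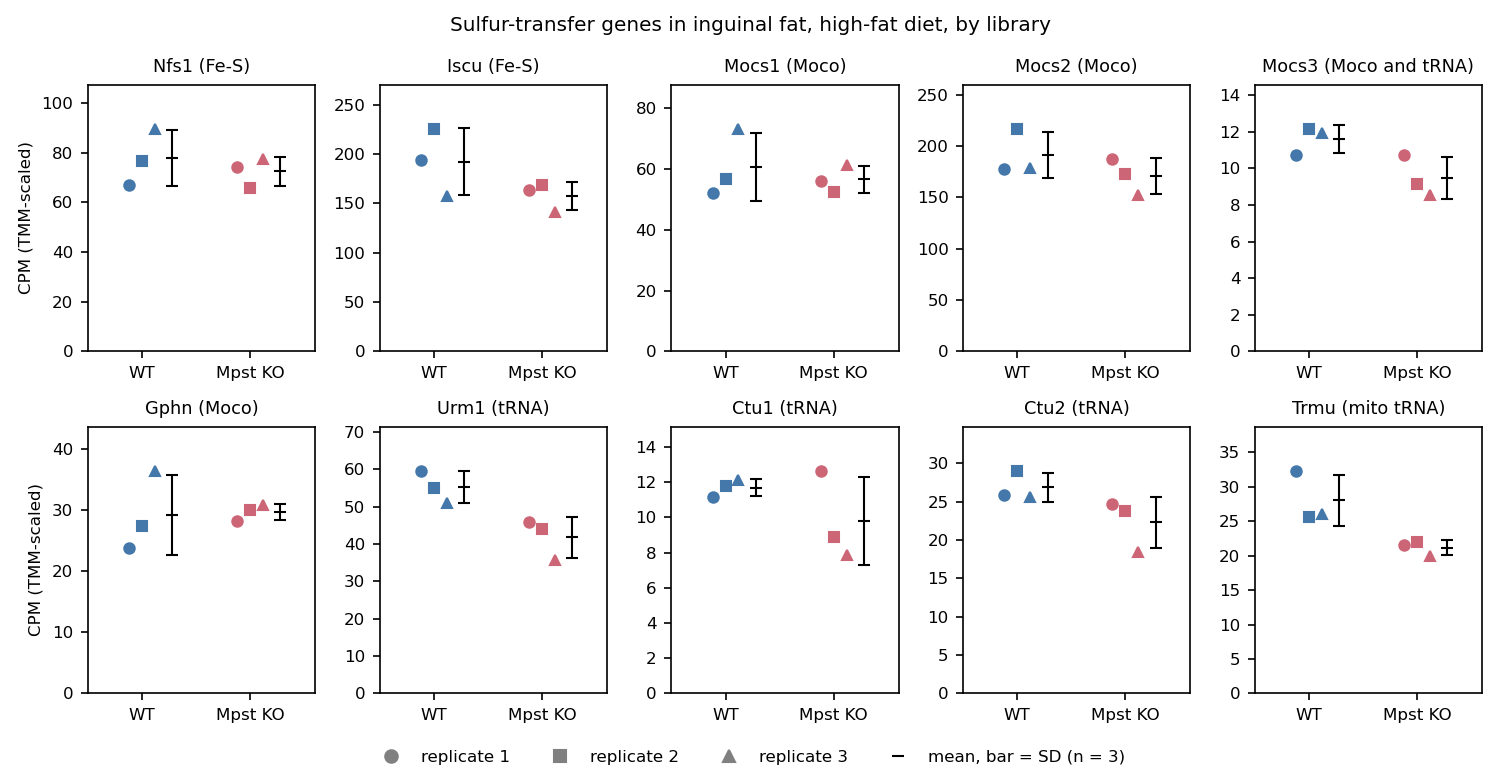
Level of each of the 10 genes in every library, in CPM on the TMM-scaled library size (vertical axes from 0); circles, squares and triangles are replicates 1, 2 and 3 and black bars are mean ± SD (n = 3). Wild type and knockout are separate for Urm1, Ctu2 and Trmu and overlap for the other 7 genes.

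In 3 of the 10 genes (Urm1, Ctu2 and Trmu) the genotypes did not overlap, all lower in the knockout, against 15.5% of tested genes that were separate in that direction and 33.3% in either. Across libraries the members fell into different orders. Nfs1, Mocs1 and Gphn were highest in wild-type replicate 3, at 0.21, 0.29 and 0.34 above their wild-type mean on the log2 scale, and none of the other 7 was. Knockout replicate 3 was the lowest of the 6 libraries for those other 7 genes, at −0.32 for Mocs2 to −0.63 for Urm1 relative to the wild-type mean. The mean deviation over the 10 genes was −0.06, 0.03 and 0.03 for wild type and −0.12, −0.23 and −0.33 for knockout, in replicate number. Knockout replicate 3 was also the library with the most skeletal muscle transcripts and the lowest adipocyte marker sum, whose part was not tested. Without it the members' median log2 fold change was −0.16, and without it and wild-type replicate 2, the other library with muscle transcripts, −0.15.

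**Figure D3:**
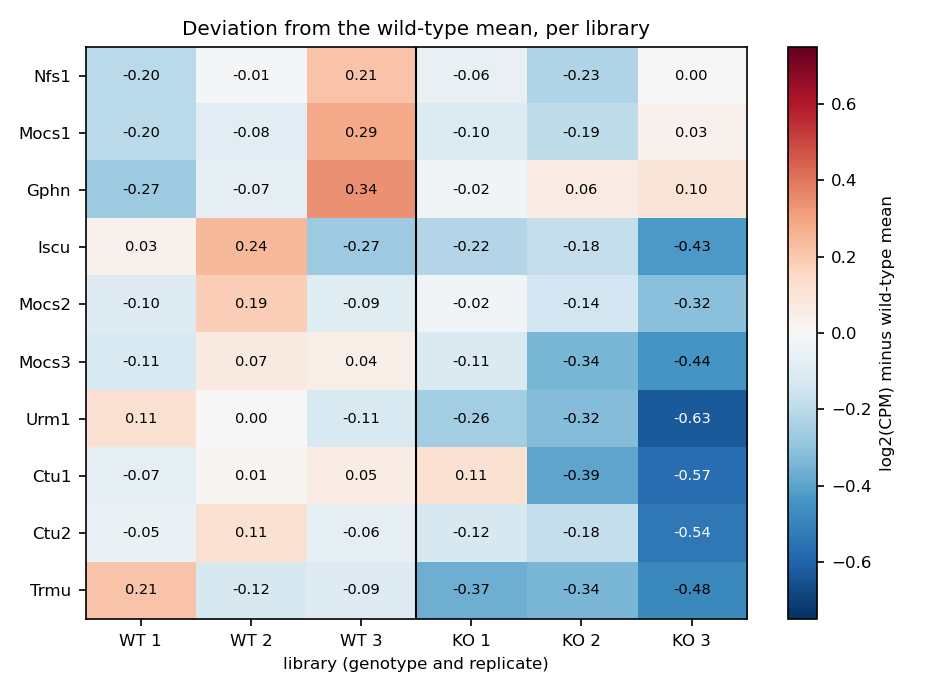
Log2 CPM of each gene in each library minus that gene's wild-type mean, with the value in each cell (blue lower, red higher; the vertical line separates wild type from knockout). Nfs1, Mocs1 and Gphn peak in wild-type replicate 3, and the other 7 genes are lowest in knockout replicate 3, down to −0.63 for Urm1.

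Levels of different genes were compared as CPM per kilobase of exon, over the exons of all coding transcripts in GENCODE. On this scale Iscu was the highest member, at 90.9 ± 16.0 in wild type and 74.5 ± 6.84 in knockout (SD, n = 3 each). The order depends on the exon length used, which can exceed that of any single transcript. It was 2116 bases for Iscu and 5282 for Mocs2, which has 12 coding transcripts. In CPM, Iscu and Mocs2 were level in wild type, at means of 192 and 191. Mocs2 (36.2 ± 4.19) and Nfs1 (32.5 ± 4.71) followed in wild type, with ranges that overlapped each other. Urm1 (25.1 ± 1.95), Mocs1 (21.0 ± 3.84) and Trmu (18.4 ± 2.44) came next, each overlapping its neighbour in this order. Ctu2 (8.69 ± 0.603) and Gphn (7.92 ± 1.77) overlapped as well, and Mocs3 (5.88 ± 0.390) and Ctu1 (4.72 ± 0.198) were lowest and separate. The carrier Urm1 thus stood above the enzyme that loads it, Mocs3, and above both subunits of the enzyme that uses it.

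Promoters are shown for Urm1 and Trmu, the members with the smallest p-values, and for Nfs1, whose estimate was near 0. The estimates of Gphn and Mocs1 were nearer 0, and their promoters are not shown. Each window runs from 250 bases before to 50 bases after the RefSeq start on GRCm38.p6, written 5′ to 3′ along the gene, and capitals mark CCGGAAG or its reverse complement CTTCCGG, the core recognised by ETS factors.
Urm1, chr2:29827139-29827438, plus strand: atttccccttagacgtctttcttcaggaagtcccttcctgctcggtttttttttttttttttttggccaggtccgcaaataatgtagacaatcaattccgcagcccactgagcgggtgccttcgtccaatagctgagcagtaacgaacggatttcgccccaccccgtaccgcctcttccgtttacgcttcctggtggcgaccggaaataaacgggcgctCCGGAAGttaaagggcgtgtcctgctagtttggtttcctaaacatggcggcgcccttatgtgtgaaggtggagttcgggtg
Trmu, chr15:85879077-85879376, plus strand: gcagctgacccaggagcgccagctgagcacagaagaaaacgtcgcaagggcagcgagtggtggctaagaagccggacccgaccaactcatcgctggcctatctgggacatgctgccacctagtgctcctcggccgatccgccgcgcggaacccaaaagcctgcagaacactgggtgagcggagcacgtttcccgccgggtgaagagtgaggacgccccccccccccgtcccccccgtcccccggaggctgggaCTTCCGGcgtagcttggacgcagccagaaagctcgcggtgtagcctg
Nfs1, chr2:156144137-156144436, minus strand: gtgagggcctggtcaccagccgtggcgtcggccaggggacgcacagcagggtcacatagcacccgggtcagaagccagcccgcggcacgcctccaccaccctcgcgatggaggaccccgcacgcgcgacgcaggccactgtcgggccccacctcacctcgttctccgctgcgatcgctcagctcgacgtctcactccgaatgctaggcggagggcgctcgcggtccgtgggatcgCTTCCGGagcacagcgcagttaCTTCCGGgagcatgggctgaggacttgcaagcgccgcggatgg
The letters occur 1 time in each of the Urm1 and Trmu windows, 2 times in that of Nfs1 and 0 times in those of Gphn and Mocs1. They were found in 4 of the 9 members with an entry (Nfs1, Mocs3, Urm1 and Trmu), counting either strand, in 17.43% of the 11038 windows of tested genes and in 9.12% of all 27025. The palindrome recognised by NRF1, GCGCA followed directly by TGCGC, was in the Mocs2 window alone among the 9, and in 2.01% of the windows of tested genes.

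The transcripts that most closely followed Urm1 over the 6 libraries on the log2 CPM scale were Orc6, a subunit of the origin recognition complex (Pearson r 0.996), Ntmt1, an N-terminal methyltransferase (0.996), and Zfand2b, a zinc-finger protein linked to the proteasome (0.994). They were the 3 highest among all tested genes, chosen for the likeness, and the 6 points share their genotype contrast and library composition, so the values are a description. Their log2 fold changes were −0.22, −0.40 and −0.44, and none passed (edgeR adjusted p = 0.238, 0.104 and 0.0879).

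Around Nfs1 and Iscu, the 20 further genes of mitochondrial iron-sulfur assembly had a median log2 fold change of −0.29, with 1 called lower and 0 higher by edgeR (unadjusted p under 0.05: 6 lower and 1 higher, and by DESeq2 3 and 1). Over all tested genes the shares lower were 2.65% by edgeR, 12.7% at an unadjusted p under 0.05 and 6.36% by DESeq2, and the same shares stand beside the lists that follow. The called gene was Bola1, a mitochondrial BolA protein that works with glutaredoxin 5. It fell from 47.0, 50.5 and 39.6 CPM to 26.9, 31.6 and 19.9 CPM (log2 fold change −0.80, SE 0.18, edgeR adjusted p = 0.0368), with no overlap. Lyrm4, the small protein that stabilises NFS1, chosen here after its values were seen, was at −0.46 (edgeR adjusted p = 0.131).

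Of 11 genes of cytosolic iron-sulfur assembly (median −0.16), Glrx3 was called lower and 0 higher by edgeR (unadjusted p under 0.05: 3 lower and 0 higher). Glrx3 encodes a glutaredoxin that carries iron-sulfur clusters in the cytosol, and it fell from 68.6, 63.5 and 52.2 CPM to 31.8, 37.2 and 25.9 CPM (log2 fold change −0.96, SE 0.16, edgeR adjusted p = 0.0188). Of 25 enzymes and other proteins that carry iron-sulfur clusters outside the respiratory complexes (median −0.01), 2 were called lower and 0 higher by edgeR (unadjusted p under 0.05: 2 lower and 1 higher). Nthl1, a DNA glycosylase of base excision repair, fell from 12.6, 13.4 and 10.4 CPM to 5.60, 6.78 and 6.71 CPM (−0.91, SE 0.18, edgeR adjusted p = 0.0274). Cisd3, a mitochondrial iron-sulfur protein, fell from 121, 109 and 101 CPM to 72.0, 80.1 and 61.2 CPM (−0.63, SE 0.14, edgeR adjusted p = 0.0322). The genotypes did not overlap for any of these called genes, as for 15.5% of all tested genes in that direction. These genes were picked by their p-values, so the separation is not further support. All 4 lost their call when wild-type replicate 2 or knockout replicate 1, 2 or 3 was left out. Those fits called few of all tested genes, 0 higher and 1 lower without wild-type replicate 2. Without knockout replicate 1, 2 or 3 they called 41, 1 and 1 higher and 5, 1 and 2 lower. Bola1 and Cisd3 also lost their call without wild-type replicate 1, a fit that called 538 genes higher and 263 lower. Without single libraries their log2 fold changes ranged from −0.97 to −0.64 for Bola1, −1.09 to −0.83 for Glrx3, −1.01 to −0.84 for Nthl1 and −0.73 to −0.53 for Cisd3.

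**Figure D4:**
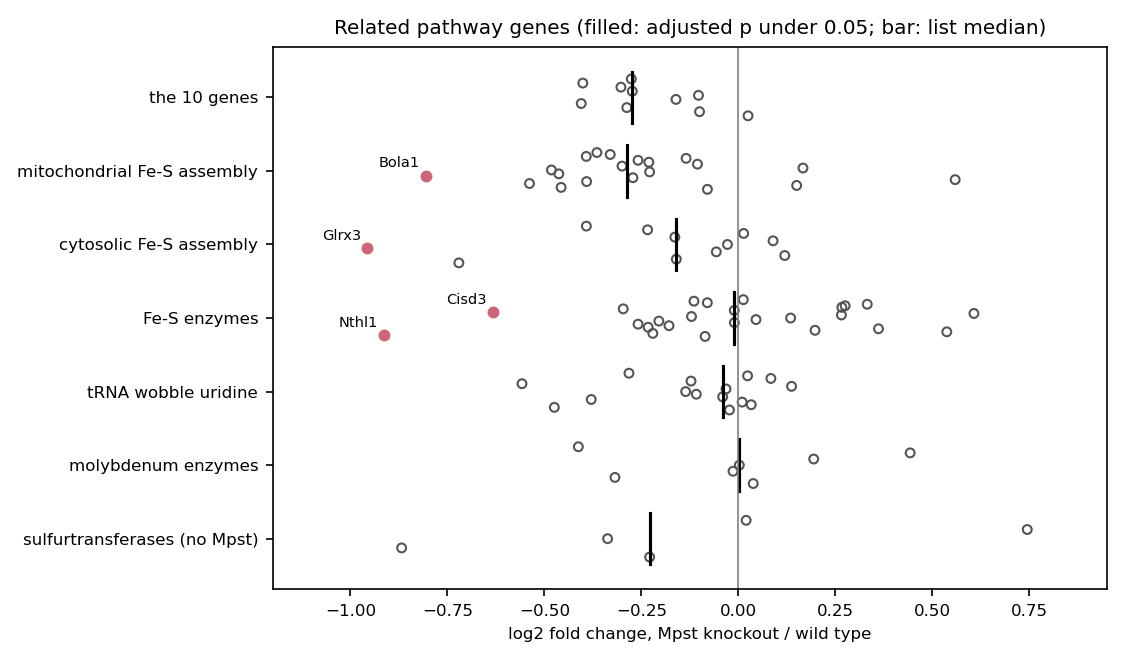
Log2 fold change of every tested gene in the lists around the 10 genes (1 point per gene, list median as a black bar; Mpst is left out of its list). Filled points passed edgeR's test: Bola1, Glrx3, Nthl1 and Cisd3, all lower in the knockout, while the 10 genes and the transfer RNA and molybdenum lists hold open points only.

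The list named for wobble uridine modification had 15 tested genes and a median of −0.04. It holds the Elongator subunits and enzymes that act before or beside thiolation. It also holds Trit1, Cdk5rap1 and Cdkal1, which modify an adenosine beside the anticodon and not the wobble uridine. None of the 15 was called by edgeR, DESeq2 or limma-voom. At an unadjusted p under 0.05, 3 were lower, Trit1 among them (log2 fold change −0.56, the lowest of the list), and 0 higher. Trmt112, the partner protein of several transfer RNA methyltransferases, had the smallest p (log2 fold change −0.47, edgeR adjusted p = 0.0849). Its means were 19.7 ± 1.45 and 14.2 ± 1.89 CPM (SD, n = 3 each). It passed without wild-type replicate 3 (edgeR adjusted p = 0.0384). That fit called 1434 of all tested genes higher and 1167 lower, against 669 and 373 in the reported fit. Among the enzymes that need the molybdenum cofactor, with Mocos, which sulfurates it, 7 of 9 were tested. Their median was 0.00, and 0 were called by edgeR, DESeq2 or limma-voom, or had an unadjusted p under 0.05. Suox, sulfite oxidase, had the smallest p, at 23.0 ± 6.18 and 17.3 ± 2.52 CPM (−0.41, edgeR adjusted p = 0.227), with overlapping genotypes. Wild-type replicate 3 was its highest library, at 29.9 CPM, and without it the log2 fold change was −0.17 (edgeR adjusted p = 0.497). Of 6 sulfurtransferases of the rhodanese kind and persulfide-forming enzymes, only Mpst was called. Tst, whose start lies 509 bases from that of Mpst on the opposite strand, was at −0.87 (edgeR adjusted p = 0.0857). Wild-type replicate 3 was its highest library, at 74.2 CPM, and without it the log2 fold change was −0.42. DESeq2 called Tst (adjusted p = 0.0190), as did edgeR without wild-type replicate 1 (adjusted p = 0.0427). Whether the knockout allele alters sequence near Tst is not given in the labels, and its part in the Tst value was not tested.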

How the data were processed

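RNA-seq counts of 6 libraries (3 wild type, 3 Mpst knockout, all on a high-fat diet) were used. Per the labels' protocols, libraries were made with the TruSeq RNA v2 kit from 500 ng of total RNA and read as single ends of 75 bp. The submitters' processing notes name HISAT2 2.1.0, HTSeq 0.13.5, DESeq2 1.26 and mm10. Annotation and counting settings were not given in the sources used here. Deposited values are raw whole-number counts per gene symbol. The 5 summary lines were left out (reads assigned to no feature, 8.85% to 14.7% of uniquely placed reads).

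Counts were fitted in R 4.3.3 with edgeR 4.0.16 (filterByExpr, 14065 genes kept, TMM scaling, robust quasi-likelihood test, no covariates), with p-values adjusted over all tested genes. The SE is the log2 fold change over the square root of F, and 95% intervals use its t quantile. The common biological coefficient of variation was 19.5%. The procedure was tested on simulated data. Each pair of same-group libraries varied beyond counting noise (3.27 to 23.1 times it), so none was a copy. Alternatives were limma-voom (limma 3.58.1), DESeq2 1.42.0, scaling by RLE or the upper quartile, other count filters, a fit without robust estimation, a replicate block, each library left out and, chosen after seeing the data, both libraries highest in muscle transcripts left out.

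The genes and lists were chosen with earlier results of these data known. The text names all 10 genes, Mpst, Tst and up to 4 called genes per list, otherwise the one with the smallest p. It also names the 3 genes most like the member with the smallest p. Lyrm4 and Trit1 are given with their values outside this rule. Positions are from GENCODE M21 on GRCm38, the assembly behind mm10, and promoters from RefSeq (9 of the 10 genes matched). Some genes of the related lists are counted but not reported here by name.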

Additional observations from a re-analysis of the deposited data

How the results depend on the processing

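Limits: with 3 libraries per genotype and 8054560 counts in the shallowest, small changes of genes with few counts, such as Ctu1 and Mocs3, were the least precise. None of the 10 genes was called higher under any alternative run, and 0 or 1 was called lower (Urm1, 1 without wild-type replicate 3). Of 150 refits of single members, 136 had a log2 fold change below 0, where 9 of the 10 lay in the reported fit. The refits share the same 6 libraries, so they are not separate observations and add no support. The median of all tested genes stayed between −0.02 and 0.04 under every alternative, and that of the 10 genes between −0.33 and −0.15.

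Without 1 library, the genes called ranged from 0 to 1434 higher and 1 to 1167 lower, against 669 and 373 in the reported fit. Those of the related lists (without Mpst) ranged from 0 to 4 higher and 0 to 11 lower, against 0 and 4. The highest of each of these counts came from the fit without wild-type replicate 3. DESeq2 called 1074 genes higher and 894 lower, with 1 and 8 in the related lists. Without both libraries highest in muscle transcripts 0 genes were higher and 1 lower, and 0 of the related lists were lower. The cause was not tested.

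Signs turned for estimates near 0. Gphn was −0.10 without wild-type replicate 1, −0.02 without wild-type replicate 2, −0.0021 without knockout replicate 3 and −0.047 without the muscle-rich libraries. Without wild-type replicate 3, Nfs1 was 0.017 and Mocs1 0.064, and Mocs2 was 0.013 without the muscle-rich libraries, where Iscu was −0.085, Ctu1 −0.13, Ctu2 −0.093 and Mocs3 −0.20. Without 1 library, Gphn ranged from −0.10 to 0.22, Nfs1 from −0.19 to 0.017 and Mocs1 from −0.19 to 0.064.

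With the replicate number as a block, 1 member was lower (Urm1, −0.40, adjusted p = 0.0292), with 1387 genes higher and 1289 lower and, in the related lists, 1 higher and 14 lower. Tst (−0.79, adjusted p = 0.0472) and Trmt112 (−0.48, adjusted p = 0.0369) passed with it too. The deviations of same-numbered libraries correlated at 0.171, −0.0994 and 0.303, and not every library correlated best with its own number. With 3 libraries per genotype, these values cannot decide whether libraries of the same number were paired.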
